A study of Rattus norvegicus with 16 samples.

Results

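The genes of phosphate buffering and oxygen storage in muscle were followed here as 9 members: the creatine kinases Ckm, Ckb and Ckmt2, the creatine transporter Slc6a8, the adenylate kinase Ak1, the AMP deaminases Ampd1, Ampd2 and Ampd3, and myoglobin, Mb. They were taken by symbol, and all 9 were found among the 17147 genes of the table. Messenger RNA was sequenced from the supraspinatus, a muscle of the rotator cuff, of Sprague Dawley rats, in 16 libraries. There were 4 libraries from unoperated rats (0 days) and 4 each at 10, 30 and 60 days after an operation on both sides that tore the supraspinatus through its full thickness and cut out suprascapular nerve. Tear and nerve injury were made together in every operated rat, so the response to either alone cannot be told apart, and no sham-operated group was analysed here. The labels give no age, sex or batch, and do not say which libraries came from the same rat, so p-values measure the spread between these libraries.

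Muscle contraction can spend ATP faster than oxidation replaces it, and several enzymes bridge the gap. Creatine kinase moves a phosphate between creatine and ATP, with one form in the cytosol (Ckm in muscle, Ckb in brain and many other tissues) and another in mitochondria (Ckmt2 in striated muscle). Adenylate kinase rebuilds ATP from ADP and leaves AMP, which AMP deaminase turns into IMP. Myoglobin is the oxygen-binding haem protein of oxidative muscle fibres and the heart.

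The promoters of 4 members that moved in different ways are shown, from 250 bases before to 50 after the annotated start, as RefSeq gives them for the GRCr8 assembly. Ckm and Ckmt2 fell after injury, Ckb and Mb rose. Capitals mark CAGCTG or CACCTG, E-boxes of the kind bound by MyoD and myogenin, and matches to the MEF2 motif, each on either strand. The regions are chr1:88189211-88189510 (+ strand) for Ckm, chr2:24845462-24845761 (- strand) for Ckmt2, chr6:136553415-136553714 (- strand) for Ckb and chr7:110647693-110647992 (- strand) for Mb.
Ckm: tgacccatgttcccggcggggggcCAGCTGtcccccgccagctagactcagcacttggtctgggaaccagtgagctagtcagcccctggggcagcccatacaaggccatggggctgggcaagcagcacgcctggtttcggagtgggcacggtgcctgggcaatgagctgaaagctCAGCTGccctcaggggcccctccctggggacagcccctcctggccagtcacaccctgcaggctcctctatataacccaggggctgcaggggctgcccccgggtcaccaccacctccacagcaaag
Ckmt2: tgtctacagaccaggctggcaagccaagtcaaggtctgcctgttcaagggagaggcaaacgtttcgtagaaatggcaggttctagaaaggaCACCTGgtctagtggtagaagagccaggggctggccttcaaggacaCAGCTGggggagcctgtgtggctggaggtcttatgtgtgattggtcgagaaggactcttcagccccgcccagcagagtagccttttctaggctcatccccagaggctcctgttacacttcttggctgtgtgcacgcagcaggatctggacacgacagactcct
Ckb: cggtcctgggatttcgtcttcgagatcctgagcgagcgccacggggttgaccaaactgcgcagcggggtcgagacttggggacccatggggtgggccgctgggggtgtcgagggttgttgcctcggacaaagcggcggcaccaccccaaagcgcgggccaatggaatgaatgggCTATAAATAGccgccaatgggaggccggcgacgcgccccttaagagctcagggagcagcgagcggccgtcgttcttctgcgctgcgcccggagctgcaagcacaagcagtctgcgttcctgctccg
Mb: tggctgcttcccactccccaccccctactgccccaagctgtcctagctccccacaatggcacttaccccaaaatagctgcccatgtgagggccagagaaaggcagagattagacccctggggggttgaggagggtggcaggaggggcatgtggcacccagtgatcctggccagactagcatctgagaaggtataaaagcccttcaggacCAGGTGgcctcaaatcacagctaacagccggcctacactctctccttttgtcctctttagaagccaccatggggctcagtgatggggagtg

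With 0 at the base after the first 250, Ckm held CAGCTG at -226 and -75. Ckmt2 held CACCTG at -159 and CAGCTG at -113. Mb held 1 CACCTG, at -41 and on the other strand. Ckb held neither E-box and 1 MEF2 match at -76, which overlaps a TATAAA at -75. Mb held a TATAAA at -60. Ampd1 held CACCTG at -188 and a MEF2 match at -161, which overlaps a TATAAA at -160, Ampd2 held CAGCTG at 8, and Slc6a8 held none of these 4 motifs. Of 33469 rat promoters of this length, 15.1% held CAGCTG, 18.8% CACCTG, 3.29% a MEF2 match and 14.2% TATAAA. Promoters of 7 of the 9 members were in the table, those of Ak1 and Ampd3 were not used here. These matches are letters in a window and were not tested as binding sites.

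The libraries held 17184281 to 39903266 fragments each, and the 60-day libraries were the smallest. The 9 members together took 3.76% to 4.27% of all fragments on day 0, 2.80% to 3.20% on day 10, 4.30% to 4.94% on day 30 and 3.81% to 4.36% on day 60. Levels are in CPM, fragments scaled to library size with TMM factors, which set the bulk of genes equal between libraries. CPM are not divided by gene length, so levels are compared between libraries and not between genes. With library totals in place of TMM factors, the median change (log2) over the table moved up by 0.66, 0.49 and 0.41 on days 10, 30 and 60 against day 0. Each fold change is given relative to most other genes, and a direction that turns with library totals is given beside the gene. All 9 members passed the filter on low counts.

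At 10 days against day 0, 8 of the 9 members were called changed (edgeR, adjusted p under 0.05), 3 higher and 5 lower. The background was high: 62.7% of the 11658 genes tested were called, 33.3% higher and 29.4% lower. At 30 days all 9 were called, 4 higher and 5 lower, against 64.6% of genes tested (33.7% higher, 30.9% lower). At 60 days 7 were called, 4 higher and 3 lower, against 59% of genes (29.9% higher, 29.1% lower). The median log2 fold change of the members was -0.32, -0.29 and -0.14 at the 3 times, beside 0.061, 0.046 and 0.040 for all genes tested. A joint test of the 4 groups called 8 members, all but Slc6a8, and 84.7% of genes. Most genes of the table moved, and the members' counts are read against that.

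Scaling with library totals moved the split between higher and lower calls. It called 9 members on day 10, 5 higher and 4 lower, against 80.2% of genes (70% higher, 10.1% lower). It called 7 on day 30, 4 higher and 3 lower, against 75.1% (63.1% and 11.9%), and 8 on day 60, 5 higher and 3 lower, against 69.9% (57.8% and 12.1%). For 30 against 10 days it called 7, 5 higher and 2 lower, against 47.6% (13.1% and 34.5%). For 60 against 30 days it called 2, both lower, against 24.5% (6.42% and 18%), and for 60 against 10 days 6, 4 higher and 2 lower, against 63.2% (17.7% and 45.5%).

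**Figure D1:**
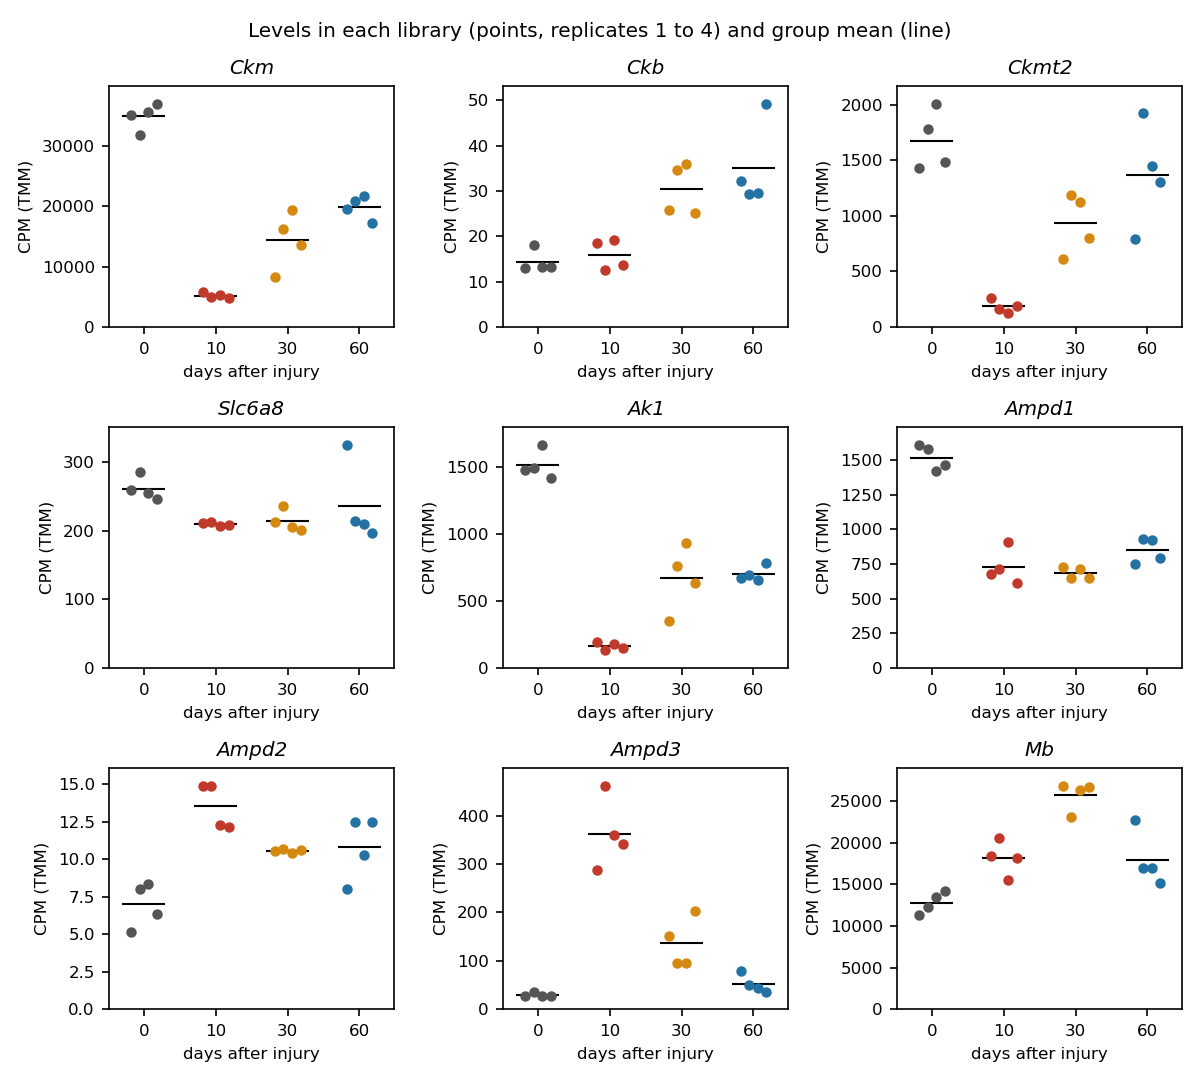
Level of each gene in CPM (TMM-scaled, linear axis from 0) against days after injury, 0 days being unoperated. Each point is a library, replicates 1 to 4 from left to right, and the line is the group mean. Ckm, Ckmt2 and Ak1 are lowest on day 10, Ampd3 is highest on day 10 and Mb is highest on day 30.

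The muscle creatine kinases fell by 10 days and then partly returned. Ckm, the cytosolic form of muscle, stood at 35120, 31780, 35631 and 36965 CPM in the 4 libraries on day 0 and at 5735, 4904, 5369 and 4803 CPM on day 10. At 30 days its levels were 8350, 16214, 19432 and 13517 CPM, and on day 60 19556, 20874, 21663 and 17234 CPM. Every operated library lay below every unoperated one, and the 10-day libraries lay below all others. The level on day 10 was 6.70-fold lower than on day 0, a log2 fold change of -2.74 ± 0.20 (SE; edgeR adjusted p 5.98e-09). It was still lower on day 30 (-1.28 ± 0.19, adjusted p 1.94e-05) and day 60 (-0.81 ± 0.19, 0.00138), and with library totals the values were -2.09, -0.80 and -0.41, all called. Ckm rose again from 10 to 30 days (1.47 ± 0.19, 1.21e-05). From 30 to 60 days the difference was 0.46 ± 0.19 (0.0810) and the groups overlapped; it was called by DESeq2 (0.49, adjusted p 0.0322), with the title letter as a covariate (0.61, 0.0413) and without 30-day replicate 3 (0.64, 0.0164).

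Ckmt2, the sarcomeric mitochondrial creatine kinase that hands phosphate to creatine at the inner membrane, was also lower on day 10. Its levels were 1431, 1782, 2007 and 1485 CPM on day 0 and 260, 162, 129 and 193 CPM on day 10. They were 612, 1190, 1125 and 801 CPM on day 30 and 789, 1921, 1446 and 1302 CPM on day 60. The 10-day libraries stood apart from all others, while the 60-day libraries overlapped both the 0-day and the 30-day ones. Ckmt2 was 9.02-fold lower on day 10 (log2 -3.17 ± 0.29, edgeR adjusted p 1.52e-07) and lower on day 30 (-0.85 ± 0.27, 0.0118). The 30-day call was lost with library totals (-0.37, 0.209). At 60 days the difference from 0 days was -0.30 ± 0.27 (0.351), and 0.12 with library totals. From 30 to 60 days it was 0.55 ± 0.27 (0.153), called without 60-day replicate 1 (0.74, 0.0395). From 10 to 60 days Ckmt2 rose by 2.88 ± 0.29 (6.29e-07).

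Ckb, the creatine kinase of brain and of many non-muscle cells, moved the other way and later. It stood at 13.0, 18.1, 13.3 and 13.2 CPM on day 0 and at 18.5, 12.5, 19.3 and 13.7 CPM on day 10, and these groups overlapped. It reached 25.8, 34.7, 35.9 and 25.1 CPM on day 30 and 32.3, 29.3, 29.6 and 49.2 CPM on day 60, with every one of these libraries above every earlier one. The log2 fold change against day 0 was 0.15 ± 0.19 (edgeR adjusted p 0.521) on day 10, 1.07 ± 0.19 (0.000165) on day 30 and 1.28 ± 0.19 (4.39e-05) on day 60. With library totals Ckb was also called higher on day 10 (0.81, 0.00154), with every library above the unoperated ones, and the later values were 1.56 and 1.70. Ckb rose from 10 to 30 days (0.93 ± 0.19, 0.000878), and the difference from 30 to 60 days was 0.21 ± 0.19 (0.458).

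Slc6a8 brings creatine into the fibre across the plasma membrane. Its level was 260, 286, 255 and 246 CPM on day 0, 212, 213, 207 and 209 CPM on day 10 and 213, 236, 206 and 202 CPM on day 30. At 60 days 3 libraries were at 215, 210 and 197 CPM and replicate 1 at 325 CPM, above every other library. The calls on day 10 (log2 -0.32 ± 0.12, edgeR adjusted p 0.0313) and day 30 (-0.29 ± 0.12, 0.0464) did not hold. With library totals the direction turned to 0.34 on day 10, called higher (0.00971), and 0.21 on day 30 (0.102). They were also lost with upper-quartile factors (-0.26 and -0.16, adjusted p 0.0519 and 0.210), and in 6 and 11 of the 16 fits with a library left out. At 60 days the value was -0.14 ± 0.12 (0.323), 0.26 with library totals (0.0491) and -0.34 without 60-day replicate 1 (0.000701). The joint test of the 4 groups did not call Slc6a8 (adjusted p 0.0733).

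**Figure D2:**
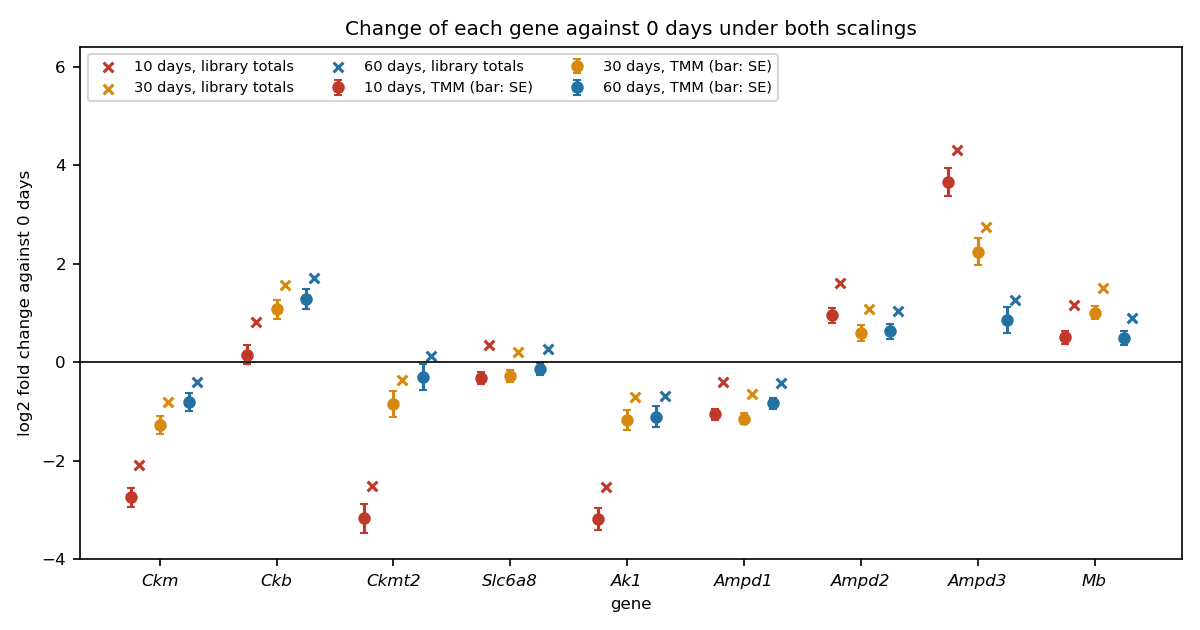
Log2 fold change against day 0 (vertical axis) of the 9 genes on days 10, 30 and 60, with TMM factors (circles, bars are the SE) and with library totals (crosses). All crosses lie above their circles, and only Slc6a8 (3 times) and Ckmt2 (60 days) lie on different sides of 0.

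In the adenylate system, the kinase fell and the deaminases split by isoform. Ak1, the cytosolic adenylate kinase of muscle, was at 1476, 1495, 1665 and 1418 CPM on day 0 and at 196, 137, 180 and 150 CPM on day 10. It was at 351, 761, 936 and 635 CPM on day 30 and 669, 697, 660 and 785 CPM on day 60. All 12 operated libraries lay below the unoperated ones, and the 30-day libraries spread more widely than the others, with replicate 1 lowest for Ak1 as for Ckm and Ckmt2. Ak1 was 9.14-fold lower on day 10 (log2 -3.19 ± 0.22, edgeR adjusted p 6.30e-09). It stayed lower on day 30 (-1.17 ± 0.21, 0.000134) and day 60 (-1.11 ± 0.21, 0.000289), and with library totals was called lower at all 3 times (-2.53, -0.70 and -0.69). It rose from 10 to 30 days by 2.02 ± 0.21 (2.53e-06). From 30 to 60 days the difference was 0.067 ± 0.20 (0.847), and it was -0.15 without 30-day replicate 1.

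Ampd1 is the AMP deaminase of skeletal muscle. Its levels were 1607, 1581, 1416 and 1460 CPM on day 0, 676, 713, 909 and 616 CPM on day 10, 725, 648, 714 and 652 CPM on day 30 and 747, 927, 925 and 790 CPM on day 60. With TMM factors it was lower in every operated library than in any unoperated one. With library totals the 10-day libraries overlapped the unoperated ones. The log2 fold changes against day 0 were -1.06 ± 0.11 (edgeR adjusted p 4.98e-07), -1.15 ± 0.11 (2.71e-07) and -0.84 ± 0.11 (1.07e-05), and with library totals -0.40, -0.65 and -0.43, all called. Unlike for Ckm, Ckmt2 and Ak1, no rise after 10 days was called. The difference from 10 to 30 days was -0.089 ± 0.11 (0.535). From 30 to 60 days it was 0.31 ± 0.11 (0.0579), with every 60-day library above every 30-day one. With library totals these groups overlapped. That difference was called with RLE factors, upper-quartile factors, DESeq2 and a mean of at least 1 CPM (adjusted p 0.0184 to 0.0496). It was also called without 10-day replicate 3 or 4 or 60-day replicate 1 (0.0276, 0.0488 and 0.0254). Between 60 and 10 days the difference was 0.22 ± 0.11 (0.101), called with upper-quartile factors (0.31, 0.0288) and DESeq2 (0.25, 0.0475), without 10-day replicate 3 (0.34, 0.00885) or 60-day replicate 1 (0.27, 0.0461), and at -0.034 with library totals.

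Ampd3, the AMP deaminase known from red blood cells and a gene raised in wasting muscle, rose most of the 9. It stood at 26.4, 34.4, 26.1 and 27.6 CPM on day 0 and at 288, 462, 360 and 342 CPM on day 10. It then fell to 151, 94.4, 96.4 and 202 CPM on day 30 and 78.2, 49.6, 44.1 and 35.6 CPM on day 60. The 4 groups did not overlap with each other at all. At 10 days Ampd3 was 12.7-fold higher than on day 0 (log2 3.66 ± 0.28, edgeR adjusted p 2.37e-08). It was higher on day 30 (2.25 ± 0.27, 3.37e-06) and on day 60 (0.86 ± 0.26, 0.0107), and with library totals the values were 4.32, 2.75 and 1.25, all called. Without 60-day replicate 1, the highest of its group, the 60-day value was 0.58 and the call was lost (0.0586). Ampd3 fell between 10 and 30 days (-1.42 ± 0.26, 0.000337) and again between 30 and 60 days (-1.39 ± 0.26, 0.00172).

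Ampd2, the form found in many non-muscle tissues, was the least abundant by fragments and rose more modestly. It was at 5.17, 8.03, 8.34 and 6.37 CPM on day 0, 14.9, 14.9, 12.3 and 12.1 CPM on day 10, 10.6, 10.7, 10.4 and 10.6 CPM on day 30 and 8.02, 12.5, 10.3 and 12.4 CPM on day 60. The 10-day and 30-day libraries lay above all unoperated ones, and the 60-day libraries overlapped them through replicate 1. Ampd2 was higher on day 10 (log2 0.95 ± 0.15, edgeR adjusted p 4.58e-05), day 30 (0.59 ± 0.15, 0.00315) and day 60 (0.62 ± 0.16, 0.00270). With library totals these were 1.61, 1.09 and 1.04, all called, and the 60-day libraries then lay above the unoperated ones. The difference from 10 to 30 days was -0.36 ± 0.15 (0.0563). It was called with library totals (-0.52), DESeq2, limma-voom and the 2 groups fitted alone (adjusted p 0.00970 to 0.0439), and without 0-day replicate 1 (0.0387) or 60-day replicate 1 (0.0279). Between 60 and 10 days it was -0.33 ± 0.15 (0.0707), called with library totals (-0.57, 0.00504), limma-voom (0.0444) and without 60-day replicate 2 (-0.40, 0.0447).

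Myoglobin rose after injury, unlike Ckm, Ckmt2 and Ak1. Mb was at 11265, 12307, 13507 and 14182 CPM on day 0 and at 18470, 20540, 15481 and 18133 CPM on day 10. It peaked on day 30, at 26859, 23128, 26331 and 26747 CPM, and was at 22784, 16938, 17015 and 15130 CPM on day 60. No operated library overlapped the unoperated ones, and the 30-day libraries lay above all others. The log2 fold changes against day 0 were 0.50 ± 0.14 (edgeR adjusted p 0.00420), 1.01 ± 0.14 (9.38e-06) and 0.49 ± 0.14 (0.00593), and with library totals 1.16, 1.50 and 0.89, all called. Mb rose from 10 to 30 days (0.51 ± 0.14, 0.00616) and fell from 30 to 60 days (-0.52 ± 0.14, 0.0123). The last call was lost when these 8 libraries were fitted alone (adjusted p 0.0664). Between 60 and 10 days the difference was -0.015 ± 0.14 (0.931), and its sign changed with the factors used.

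Most fibre markers moved the other way from Mb on day 10. Of 11 tested muscle fibre markers other than the members (among them Acta1, Des, Myh4, Myh1, Myh2, Myh7, Tnnt3 and Mylpf), 11 were called lower and 0 higher on day 10. Their counts were 7 lower and 0 higher on day 30, and 4 lower and 1 higher, Myh2, on day 60. Their summed level was 192389 to 214099 CPM on day 0, 51507 to 56502 on day 10, 91053 to 132592 on day 30 and 125643 to 138333 on day 60. With library totals the counts were 1 higher, Des, and 9 lower on day 10, 3 higher and 4 lower on day 30 and 4 higher and 2 lower on day 60. Tnnt1, Tnni1 and Mylpf were then called higher on days 30 and 60. The part of fibre content in the members' changes was not tested. In whole muscle, fewer fibres and less RNA per fibre cannot be told apart.

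Markers of other cells moved as well, beside 62.7%, 64.6% and 59% of all genes tested called on days 10, 30 and 60. Of 7 macrophage markers, 6, 7 and 7 were called higher on days 10, 30 and 60, and their summed level was 32.8 to 48.5 CPM on day 0 and 104 to 206 CPM in the operated libraries. Of 6 fibroblast markers, 5, 6 and 6 were called higher, with sums of 455 to 974 CPM on day 0 and 927 to 2856 CPM afterwards. The 4 adipocyte markers were called higher on day 60, at 49.6 to 119 CPM against 7.42 to 41.5 CPM on day 0. Of 5 Schwann cell markers, 1, 3 and 5 were called higher and 1, 0 and 0 lower, and with library totals 3, 4 and 5 higher and 1, 0 and 0 lower. The 4 endothelial markers were called lower on day 10, and with library totals 1 of them, Kdr, was, while Pecam1, Cdh5 and Vwf turned to 0.25, 0.16 and 0.23 (not called). The 4 smooth muscle markers were called lower on day 10, and 2 of them with library totals. Of 6 red blood cell markers (Hba1, Hba2, Hbb, Hbb-b1, Alas2 and Slc4a1), 6, 3 and 0 were called lower on days 10, 30 and 60, and 6, 1 and 0 with library totals. Their summed level was 745 to 2462 CPM on day 0, 253 to 334 on day 10, 349 to 877 on day 30 and 451 to 1109 on day 60. No marker with a row was at 0 in a whole group. The part of these cells in the members' changes was not tested.

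**Figure D3:**
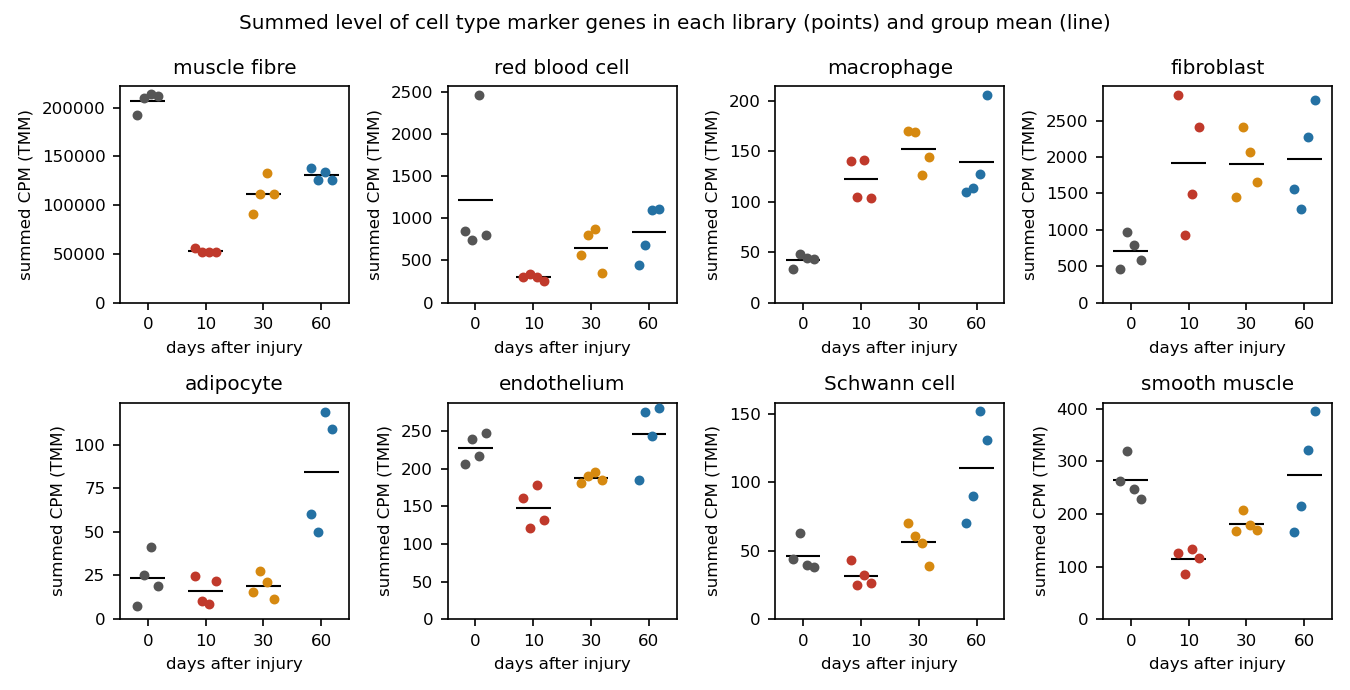
Summed CPM (TMM-scaled, linear axes from 0) of marker genes of 8 cell types in each library (points, replicates 1 to 4 from left to right) with the group mean (line), against days after injury. Muscle fibre sums fall from at least 192389 CPM on day 0 to at most 56502 CPM on day 10, while macrophage sums rise above 100 CPM in every operated library.

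Between the operated groups, 6 members were called from 10 to 30 days, 5 higher and 1 lower, against 47.3% of genes tested (23% higher, 24.3% lower). From 30 to 60 days 2 were called, both lower (Ampd3 and Mb), against 22.6% of genes (10.3% higher, 12.4% lower). From 10 to 60 days 5 were called, 4 higher (Ckm, Ckb, Ckmt2 and Ak1) and 1 lower (Ampd3), against 61.1% (29.1% higher, 31.9% lower). The counts of members whose groups did not overlap were 8, 9 and 6 on days 10, 30 and 60 against day 0, where 59%, 60.2% and 50% of genes tested did not overlap. They were 7, 3 and 5 between 30 and 10, 60 and 30, and 60 and 10 days, against 43.8%, 20.1% and 51.2%. Nothing particular to the members is read from these counts.

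In the order of levels, Ckm was highest on day 0, then 60, 30 and 10 days, and among neighbours only 60 and 30 days did not pass the threshold. Ckmt2 had the same order, and neither 0 and 60 nor 60 and 30 days passed. Ak1 had the same order too, and 60 and 30 days did not pass. Ampd1 was highest on day 0, and no pair among the operated times passed. Ampd3 had the order 10, 30, 60 and 0 days with every neighbour called. Mb had the order 30, 10, 60 and 0 days, and 10 and 60 days did not pass. Ckb had the order 60, 30, 10 and 0 days, in which only 30 and 10 days passed among neighbours. Ampd2 had the order 10, 60, 30 and 0 days, in which only 30 and 0 days did.

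Ratios of fragments within a library do not depend on the scaling factor. They give the balance of fragments in whole muscle, and the part of cell content in it was not tested. A ratio can move through either gene. On day 10 Ckm was lower (log2 -2.74) and Ckb was not called (0.15). With library totals these were -2.09 and 0.81, both called. The fragments of Ckb were 0.0418% ± 0.0101 (SD, n = 4) of those of Ckm on day 0, 0.306% ± 0.0450 on day 10, 0.224% ± 0.0587 on day 30 and 0.182% ± 0.0703 on day 60. Every operated library was above every unoperated one. The fragments of Ampd3 were 1.89% ± 0.218 (SD, n = 4) of those of Ampd1 on day 0, 50.6% ± 11.7 on day 10, 19.97% ± 8.04 on day 30 and 6.27% ± 2.82 on day 60. All 4 groups were separate, with the 10-day libraries highest and the unoperated ones lowest. Ampd2 rose against Ampd1 from 0.464% ± 0.113 to 1.90% ± 0.379, 1.55% ± 0.104 and 1.28% ± 0.233.

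Mb fragments were 0.368 ± 0.0315 (SD, n = 4) times those of Ckm on day 0, 3.52 ± 0.579 times on day 10, 1.99 ± 0.861 times on day 30 and 0.910 ± 0.174 times on day 60. Every operated library was above every unoperated one. The ratio differed from 0 days by log2 3.25, 2.35 and 1.29. Ckmt2 and Ak1 moved less against Ckm. The log2 ratio of Ckmt2 to Ckm differed from 0 days by -0.46, 0.46 and 0.46, with separate groups on day 30 only, and that of Ak1 to Ckm by -0.46, 0.083 and -0.29, with separate groups on day 10 only. By the two-sided exact permutation test, 21 of 36 ratio comparisons reached the smallest p possible for 4 against 4 libraries, 0.0286 (Benjamini-Hochberg adjusted p 0.0490 over the 36). Each of these 21 was a pair of groups that did not overlap. Of single genes tested, 20.1% to 60.2% did not overlap in the same comparisons of groups. Ratios of other gene pairs were not tested, so nothing particular to these pairs is read from the count. With any 1 library left out, 0 of the 36 passed after adjustment. The pairs were chosen with earlier results known, and the 36 tests share libraries. Fragment ratios are not corrected for gene length, so only their changes are read.

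**Figure D4:**
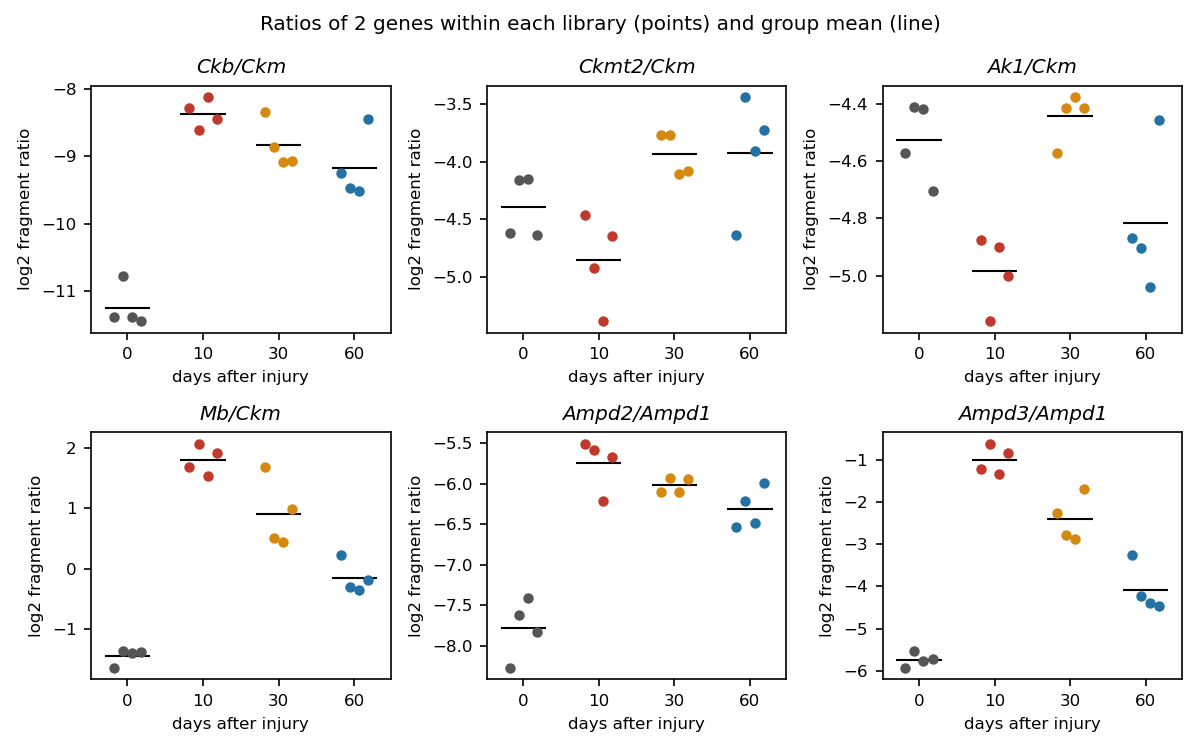
Log2 ratio of the fragments of 2 genes within each library (points, replicates 1 to 4 from left to right) and group mean (line) against days after injury. Vertical axes differ between panels. The ratios Ckb/Ckm, Mb/Ckm, Ampd2/Ampd1 and Ampd3/Ampd1 are higher in every operated library than in every unoperated one.

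Creatine is made in 2 steps by Gatm and Gamt, mostly outside muscle. Gamt fell with the kinases, from 58.5 CPM ± 2.88 (SD, n = 4) on day 0 to 17.6 ± 2.88 on day 10, 45.8 ± 10.2 on day 30 and 45.6 ± 6.36 on day 60. Its log2 fold changes were -1.73, -0.35 and -0.36, all called, but the later ones turned to 0.13 and 0.047 with library totals. Gatm was higher at all 3 times (0.65, 0.59 and 0.73, edgeR adjusted p 0.0181, 0.0291 and 0.0117). The other mitochondrial creatine kinase, listed as Ckmt1b, averaged 2.33 CPM and was called lower at all 3 times (-1.87, -0.77 and -0.90); it is named because the list has 3 genes. This list thus had 1 gene higher and 2 lower at each time, and with library totals 1 and 2 on day 10 and 1 and 0 later. Of all genes tested, 62.7%, 64.6% and 59% were called on days 10, 30 and 60. Neither this list nor those below were tested as sets, and nothing particular to a list is read from its counts.

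Of the 5 tested genes of ATP export from mitochondria, 1 was called higher and 4 lower at each of the 3 times, with medians of -0.98, -0.62 and -0.36. Slc25a4, the ADP/ATP carrier of muscle and heart, fell from 6775 CPM ± 335 (SD, n = 4) on day 0 to 1558 ± 133 on day 10 (log2 -2.12 ± 0.15, edgeR adjusted p 4.41e-09). It was at 3697 ± 851 CPM on day 30 and 4503 ± 521 on day 60. The outer membrane channels Vdac1, Vdac2 and Vdac3 were lower on day 10 by -1.05, -0.76 and -0.98. With library totals 1 was called higher and 3 lower on day 10 and 2 and 2 on day 30. Vdac2 then turned to 0.22 on day 30 and was called higher, and on day 60 1 gene was called higher and 0 lower. The gene called higher was Slc25a5, the carrier of non-muscle and dividing cells (0.34, 0.94 and 0.55), named after its values were seen.

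Of the other adenylate kinases, 4 of 8 could be tested: 3, 3 and 3 were called lower on days 10, 30 and 60, and with library totals 1, 2 and 2. Ak6 was lower on days 10, 30 and 60 (-1.07, -1.07 and -0.67, also lower with library totals). Ak3, of the matrix, was called lower at all 3 times (-0.54, -0.35 and -0.24), and the direction turned with library totals (0.12, 0.15 and 0.17, not called). Of the enzymes that return IMP to AMP, 2 of 3 could be tested, and Adss1 had no row of that symbol. Adsl was lower on day 10 (-0.65 ± 0.078, edgeR adjusted p 2.03e-06, and 0.012 with library totals). Adss, the row for Adss2, was not called on day 10, 30 or 60 with TMM factors and is named outside the rule given below. The step of Adss1 was thus not measured. The list had 1, 2 and 2 genes higher and 0 lower with library totals. Adss and Adsl were thus each called higher on days 30 and 60 under that scaling.

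In the list of AMP and IMP breakdown and adenosine salvage, 13 of 17 genes could be tested, and Hprt1 is listed at 0 in all libraries. At 10, 30 and 60 days 4, 5 and 5 were called higher and 5, 5 and 4 lower, with medians of -0.19, 0.18 and 0.034. With library totals the counts were 8, 8 and 8 higher and 2, 2 and 3 lower. Gmpr, which turns GMP into IMP, fell from 308 CPM ± 14.6 (SD, n = 4) to 86.3 ± 8.80 on day 10 and was lower at all 3 times (-1.83, -1.39 and -1.02). Impdh2, which starts the path from IMP to GMP, was higher on day 10 (0.85 ± 0.068, edgeR adjusted p 1.85e-08) and less so on day 30 (0.18). The salvage enzyme Aprt was higher at all 3 times (0.83, 0.85 and 0.69). The nucleotidase Nt5c3a was lower at all 3 times (-0.80, -0.53 and -0.57), and with library totals it was called on day 60 alone (-0.16). It is in this list as a nucleotidase, and a part of it in the breakdown of AMP or IMP was not tested.

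The 7 genes of new purine synthesis had 2 called higher and 1 lower on day 10, 0 and 3 on day 30 and 1 and 5 on day 60. With library totals these were 5 and 0, 4 and 0, and 2 and 1. Ppat, the committing step, was not called on day 10 (0.080) and was lower on day 30 (-0.43; 0.065 with library totals) and day 60 (-0.70 ± 0.074, edgeR adjusted p 9.08e-07). Atic was higher on day 10 (0.35) and lower on day 60 (-0.36; 0.046 with library totals). Prps1 and Paics were lower on days 30 and 60 by -0.44 and -0.42, and by -0.28 and -0.28. With library totals Prps1 was at 0.054 and -0.016 and Paics at 0.22, called higher, and 0.13.

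The AMP-activated protein kinase, a trimer that senses AMP, had subunits in both directions. Of 7 tested, 2 were called higher and 4 lower on day 10, 2 and 2 on day 30 and 1 and 3 on day 60, and with library totals 3 and 1, 5 and 2, and 4 and 2. Prkaa1, a catalytic subunit, was higher at all 3 times (0.96, 0.38 and 0.41). The other catalytic subunit, Prkaa2, had lower means after injury and is named after its values were seen. They were 64.6 CPM ± 25.9 (SD, n = 4) on day 0, 22.7 ± 7.29 on day 10, 16.6 ± 3.21 on day 30 and 19.8 ± 7.93 on day 60. Prkag3, the regulatory subunit of fast muscle, had means of 154, 278, 352 and 97.2 CPM on days 0, 10, 30 and 60 (n = 4 each). It was higher on day 10 (0.85 ± 0.19, edgeR adjusted p 0.000885) and day 30 (1.19 ± 0.19, 4.87e-05) and lower on day 60 (-0.66 ± 0.19, 0.00678), the last call being lost with library totals (-0.25). Prkab2 was not called on day 10 (0.33) and lower on days 30 and 60 (-1.34 ± 0.33 and -2.0 ± 0.34). Prkag1 was lower on day 10 alone (-0.71; -0.055 with library totals).

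Of 8 tested genes of oxygen sensing and other globins, 2, 3 and 2 were called higher and 2, 4 and 4 lower on days 10, 30 and 60, and with library totals 6, 4 and 4 higher and 1, 2 and 4 lower. Epas1, the hypoxia-inducible factor 2 alpha, fell from 171 CPM ± 15.5 (SD, n = 4) to 49.7 ± 7.38, 43.4 ± 7.05 and 75.6 ± 10.3 (log2 -1.78, -1.98 and -1.18; all called under both scalings). Its partner Arnt was lower on days 30 and 60 (-0.67 and -0.69; -0.17 and -0.28 with library totals, the first not called). Egln3, an oxygen-dependent hydroxylase, was higher on day 10 (0.39) and lower on days 30 and 60 (-1.12 and -0.78). Vhl was higher on days 10 and 30 (0.63 and 0.41).

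**Figure D5:**
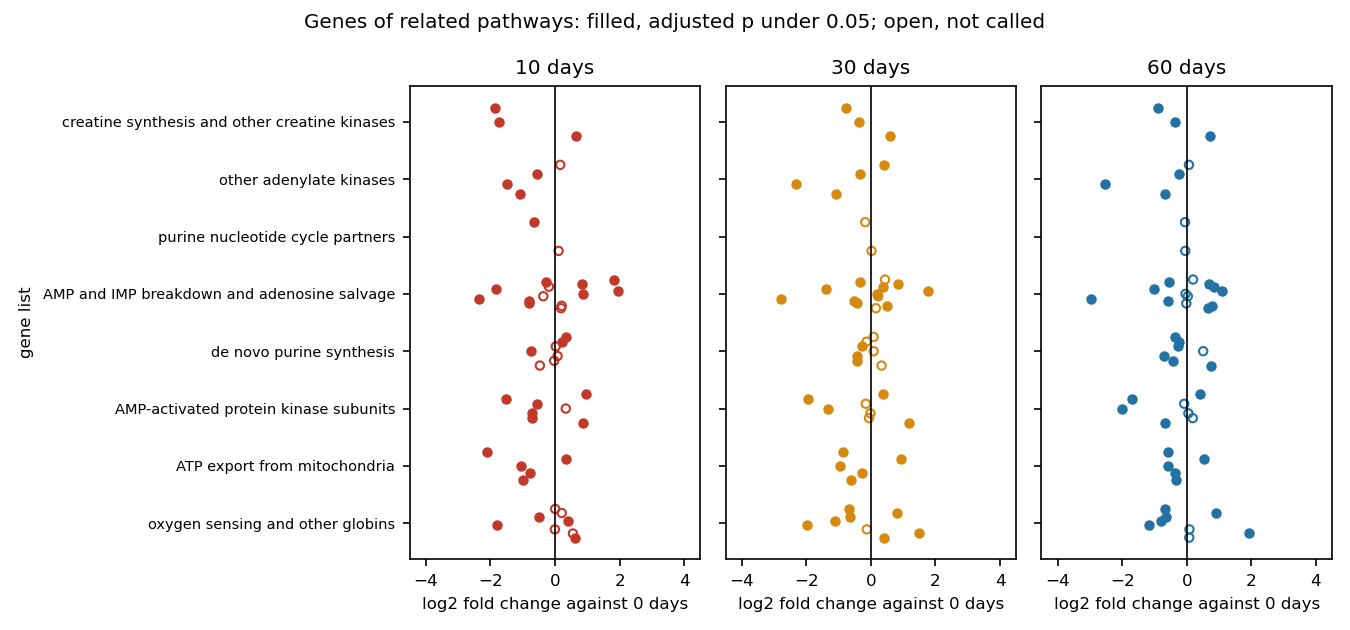
Log2 fold change against day 0 (horizontal axis) on days 10, 30 and 60 for the tested genes of 8 related lists (vertical axis), 1 point per gene. Filled points have an edgeR adjusted p under 0.05, open points do not. In the list of ATP export, 4 of 5 genes lie below 0 at each time.

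The genes most like each member over the 16 libraries were found by Pearson correlation of log2 CPM among 8223 other genes. The 16 libraries form 4 groups and share their depth and scaling, so these values are a description with no p. Ckm was most like Mpst (0.991), Slc25a4 (0.991) and Atp5a1 (0.991). Ckmt2 was most like the phosphate carrier Slc25a3 (0.992) and the complex I genes Ndufv2 (0.990) and Ndufa9 (0.989). Ak1 was most like Ank1 (0.988), Slc25a4 (0.986) and Ckm itself (0.983). Ampd1 was most like Sema7a, Kat8 and Selo (0.965 to 0.966). Ampd3 was most like the potassium channel gene Kcnn3 (0.984), Ap3m1 (0.984) and Tspan13 (0.983). Mb was most like Bad (0.950), Nicn1 (0.944) and Cep97 (0.928). Ckb was most like Emp1 (0.962), Bmp5 (0.954) and Arpc1b (0.942), Slc6a8 like Myadml2 (0.923) and Dnajb4 (0.903), and Ampd2 like Ddx41 (0.911), Slc24a6 (0.899) and Limk1 (0.897).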

How the data were processed

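Polyadenylated RNA was sequenced from 16 supraspinatus libraries, 4 per group, after miRNeasy extraction and TruSeq mRNA preparation, per the labels' protocols. The authors deposited 1 table of expected counts (raw fragments per gene and library, unscaled), made with Cuffdiff per the table's name. The submitters' processing notes name bcl2fastq 1.8.4, FastQC, TopHat2 2.0.9, Bowtie2 2.1.0.0, Cufflinks, Cuffdiff 2.1.1 and the build rn5, without roles. The annotation, strandedness and filters are not given in the sources used here. Coordinates are from RefSeq's GRCr8 tables alone and were not mixed with the table, which gives symbols only (14500 of 17147 are RefSeq symbols, and all 9 members).

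Counts were rounded (233 genes had a fractional value, and 0 members did). filterByExpr by group kept 11658 genes. Libraries were scaled with TMM, and all 16 entered 1 robust edgeR quasi-likelihood model with no covariate. The F test of each contrast was Benjamini-Hochberg adjusted over all genes tested, and 0.05 was the threshold for a call. The SE is the log2 fold change divided by the square root of F. Ratios used counts plus 0.5. The smallest level the depth can show, 3 counts, was 0.0752 to 0.175 CPM, which covers counting error only.

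Members, lists and tests were chosen with earlier results of these data known. Named were the 9 members, the 3 genes of mean at least 5 CPM most like each, in each pathway list up to 4 genes with the smallest joint-test p and a mean of at least 5 CPM, and the cell type markers. Some genes that this rule names are not reported here. Same-suffix libraries of different groups had deviations with a mean correlation of 0.0013 (-0.24 to 0.22), so replicate numbers were not taken as pairs.

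Alternatives were RLE, upper-quartile and no factors, DESeq2, limma-voom, no filter, a mean of at least 1 CPM, no robust estimation, the 2 groups alone, an adjusted p under 0.01, a replicate block, the L or R ending each title as a covariate, leaving out each library, and 5 added to counts in ratios. The fits used DESeq2 1.42.0, limma 3.58.1 and edgeR 4.0.16 under R 4.3.3, and permutations and plots used scipy 1.17.1 and matplotlib 3.10.9 under python 3.11.15.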

Additional observations from a re-analysis of the deposited data

Results flagged for a closer look

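In 4 of 36 groups of 4 libraries, 1 library lay far from the other 3 by Dixon's gap test, which chance alone gives in about 1 group in 20. These were Ckb at 0 days (replicate 2 at 18.1 CPM), Ckb at 60 days (replicate 4 at 49.2 CPM), Slc6a8 at 60 days (replicate 1 at 325 CPM) and Mb at 30 days (replicate 2, the lowest, at 23128 CPM).

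The change against 0 days differed between times in 13 of 27 comparisons of operated groups (edgeR adjusted p under 0.05). Of all genes tested, 47.3% were called for 30 against 10 days, 61.1% for 60 against 10 days and 22.6% for 60 against 30 days. Nothing particular to the members is read from this count. As log2 differences between the later and the earlier time, these were for 30 against 10 days 1.47 for Ckm, 0.93 for Ckb, 2.33 for Ckmt2, 2.02 for Ak1, -1.42 for Ampd3 and 0.51 for Mb. For 60 against 10 days they were 1.93 for Ckm, 1.13 for Ckb, 2.88 for Ckmt2, 2.09 for Ak1 and -2.80 for Ampd3. For 60 against 30 days they were -1.39 for Ampd3 and -0.52 for Mb.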

How the results depend on the processing

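Over 12 alternatives to the fit, 610 of 648 comparisons of a member kept their direction and side of the threshold. Of the others, 11 lost the call, 15 gained it and 12 turned in sign. The replicate block changed 0 of 54, and gave 8, 9, 7, 6, 2 and 5 members called in the 6 comparisons, as without it. On days 10, 30 and 60 the number of members called ranged over 7 to 9, 7 to 9 and 6 to 8 of 9. The shares called of all genes tested were 62.7%, 64.6% and 59% with TMM factors and 80.2%, 75.1% and 69.9% with library totals. Neither these ranges nor the counts with the block are read as particular to the members. For 60 against 30 days the count was 2, beside 2636 called of all genes tested. It was 4 with DESeq2 (3015 genes called), 1 with the 2 groups fitted alone (1530) and 1 at an adjusted p under 0.01 (1244). It was 2 to 4 when 1 library was left out, and 4 without 60-day replicate 1 (3381 genes called), with Ampd1 and Ckmt2 added. The ratio test passed 21 of 36 with either constant. The 21 share the same permutation-test adjusted p, 0.049, so they pass or fail together. Leaving out any 1 library gave 0. Comparisons of that library's group, then 4 against 3, cannot go below an exact p of 0.0571. The other comparisons stay 4 against 4 and can still reach 0.0286. Too few then reached it to pass the threshold after adjustment over the 36.

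Signs turned with library totals for Slc6a8 at 10, 30 and 60 days (0.34, 0.21 and 0.26) and between 30 and 10 (-0.14) and 60 and 10 days (-0.085), Ckmt2 at 60 days (0.12), Ampd2 from 30 to 60 days (-0.046) and Ampd1 from 10 to 60 days (-0.034). The difference of Mb between 60 and 10 days turned with RLE factors (0.014), upper-quartile factors (0.069), DESeq2 (0.014), a mean of at least 1 CPM (0.015), and without 10-day replicate 2 (0.049) or 60-day replicates 2, 3 or 4 (0.012, 0.010 and 0.077). Leaving out each library in turn gave ranges that crossed 0 for Ampd1 between 30 and 10 days (-0.16 to 0.034), Ak1 between 60 and 30 days (-0.15 to 0.27), Slc6a8 between 30 and 10 (-0.023 to 0.056), 60 and 30 (-0.047 to 0.24) and 60 and 10 days (-0.019 to 0.27), Ampd2 between 60 and 30 days (-0.042 to 0.15) and the log2 ratio of Ckmt2 to Ckm between 60 and 30 days (-0.16 to 0.24). The cause was not tested. Of the turned values, Slc6a8 at 10 and 30 days had been called, and Slc6a8 at 10 and 60 days was called higher with library totals.

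Genes under 3 counts in a library (0.0752 to 0.175 CPM) cannot be told from 0 at this depth, and every member was above it.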
